A study of Mus musculus with 6 samples.

Results

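Cytosolic ribosomal proteins are the protein part of the ribosome that translates nuclear mRNAs. They were followed in LSK cells, a bone marrow fraction without lineage markers but with Sca-1 and Kit on the surface, in which blood stem cells and their first progeny are concentrated. The members were all probe sets with a single gene symbol that is Rpsa, Rplp0, Rplp1 or Rplp2, or that begins with Rpl or Rps and a digit, without the S6 kinases and the pseudogenes. That rule found 100 probe sets for 48 of the 12393 genes with a probe set of their own, 26 of them named for the large (60S) subunit and 22 for the small (40S) subunit. Each gene is described by its brightest probe set, the one with the highest mean over all arrays, and the dimmer ones were checked against it. The comparison was between 3 arrays from LSK cells of mice labelled Gfi1 knockout and 3 from wild-type mice, numbered 5, 7 and 8 in each group. Gfi1 is a zinc finger transcriptional repressor of blood stem cells and myeloid and lymphoid precursors. The labels do not say which strain, age or sex the mice had, how the allele was made or whether a sample was 1 mouse or a pool. The p-values therefore speak only of the spread among these samples, which may be technical.

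Each ribosomal subunit is built in the nucleolus from ribosomal RNA and a fixed set of ribosomal proteins, so the proteins are needed in matched amounts. Most ribosomal protein mRNAs begin with a 5′ terminal oligopyrimidine tract (TOP), through which the mTOR pathway controls their translation. Haematopoiesis is sensitive to their dose: inherited loss of a single gene copy of several of them causes Diamond-Blackfan anaemia, and free ribosomal proteins can stabilise p53 by binding Mdm2.

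The start sites of the genes showed what the members share beyond their names. Of the 48 genes, 42 matched a promoter of the RefSeq table (GRCm38.p6, 250 bases before to 50 after each start). Rpl7, Rpl8, Rps14, Rps20, Rps29 and Rps4l were not matched. Within 50 bases of a listed start, 35 of the 42 (83.3%) had a run of at least 8 pyrimidines on the transcript strand, against 39.2% of 17492 protein-coding genes. The same run on the other strand was found in 10 of the 42 (23.8%), against 40.3% of all. The letters CCGGAAG, a core recognised by ETS family factors, occurred on either strand of the 300-base window in 21 of the 42 (50%), against 12.9% of all. A gene with several listed starts was counted if any of them had the match. The windows below run from 50 bases before the first listed start to 10 bases after it, 5′ to 3′ on the transcript strand. They show 3 members that did not pass the test and have a pyrimidine run at the start (Rpl35, Rps18 and Rpl38) and the 5 on which the differences described later turn. Capitals mark pyrimidine runs of at least 8 bases and CCGGAAG, on either strand.
Rpl35, chr2:39005122-39005181, minus strand: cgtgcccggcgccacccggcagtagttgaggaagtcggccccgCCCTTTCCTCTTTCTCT
Rps18, chr17:33955656-33955715, minus strand: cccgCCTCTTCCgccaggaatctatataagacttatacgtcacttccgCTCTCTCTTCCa
Rpl38, chr11:114668530-114668589, plus strand: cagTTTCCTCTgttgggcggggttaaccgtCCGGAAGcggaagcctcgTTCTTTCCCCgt
Rps24, chr14:24490628-24490687, plus strand: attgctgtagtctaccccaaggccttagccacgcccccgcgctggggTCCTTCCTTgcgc
Rpl22l1, chr3:28805458-28805517, plus strand: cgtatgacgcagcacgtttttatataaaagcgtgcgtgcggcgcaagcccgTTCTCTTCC
Rpl22, chr4:152325676-152325735, plus strand: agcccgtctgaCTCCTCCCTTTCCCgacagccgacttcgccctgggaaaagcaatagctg
Rplp0, chr5:115559417-115559476, plus strand: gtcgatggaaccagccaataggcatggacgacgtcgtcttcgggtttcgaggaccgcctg
Rps27l, chr9:66946036-66946095, plus strand: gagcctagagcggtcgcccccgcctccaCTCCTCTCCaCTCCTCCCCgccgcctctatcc
In Rpl35, Rps18, Rpl38 and Rps24 a pyrimidine run spanned the listed start. In Rpl22l1 the run began just after the listed start, in Rpl22 and Rps27l the runs lay upstream of it, and the Rplp0 window had none. Among the 40 tested genes with a promoter, the median difference between the groups was -0.06 on the log2 scale for the 33 with a pyrimidine run near the start and -0.16 for the 7 without one. It was -0.06 both for the 20 with CCGGAAG and for the 20 without it. The 33 ran from -0.70 to 0.53 and the 7 from -0.54 to 0.00, so their ranges overlapped, and neither contrast was tested. The members were also spread over the genome: 47 of them matched the RefSeq gene table, on 16 chromosomes, and 14 of the 47 (29.8%) had a small nucleolar RNA gene within their bounds, against 1.70% of 21900 protein-coding genes.

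Signals are the authors' deposited MAS5 values, and all differences below are knockout-labelled minus wild-type on the log2(signal + 16) scale, from a limma fit over all 13575 tested probe sets, each given ± its standard error (SE). The brightest 60% of probe sets were tested, which took in 45 of the 48 genes and 88 of the 100 probe sets. The median signal of an array was 286 to 335. Gfi1 itself was no lower in the knockout-labelled group, with signals of 692, 1163 and 1737 against 632, 608 and 723 (0.76 ± 0.28, limma adjusted p = 0.148). The labels do not say where its probe set lies relative to the deleted part, so it does not check them, and the group is called knockout-labelled. Kit, by which LSK cells are sorted, was bright in both groups by its brightest probe set and fell by 0.71 ± 0.17 (adjusted p = 0.0381). A dimmer Kit probe set, with signals of 167 to 402, stood at -0.57 ± 0.28 and did not pass (limma adjusted p = 0.286). Ly6a, which encodes Sca-1, was not analysed here.

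By their brightest probe sets, the mRNAs of the tested members differed little between the groups. Of the 45 tested genes, 0 rose and 1 fell at a limma adjusted p under 0.05 (Rpl22l1), which is 2.22% of them, where 3.9% of all 8239 tested genes were called (1.42% higher and 2.48% lower). Before adjustment, 4 of the 45 (8.89%) had a limma p under 0.05, 1 of them higher in the knockout-labelled group and 3 lower, against 20.6% of all tested genes. The groups did not overlap for 1 gene on the higher side (2.22%) and 3 on the lower side (6.67%), against 12.4% and 13.1% of all tested genes. The median difference of the 45 was -0.06, beside -0.01 over all tested genes, and over all 88 member probe sets it was -0.02. It was 0.02 without knockout-labelled array 7 and 0.03 without wild-type array 5, so its sign rests on single arrays. The quartiles of the 45 differences were -0.16 and 0.00, and those of all tested genes -0.25 and 0.23. Within 0.2 log2 units of 0 stood 34 of the 45 ribosomal protein genes (75.6%), 43.2% of all tested genes and 60% of 210 other probe sets at least as bright as the median member. Probe sets with several symbols were not taken out of these 210, so ribosomal protein probe sets may be among them. For 32 of the 45, the 95% confidence interval of the difference lay within 1.5-fold in both directions. When the fit was blocked on the sample number, 0 rose and 3 fell (Rpl22l1, Rpl22 and Rplp0), 6.67% of the 45, where the blocked fit called 6.36% of all tested genes (2.34% higher and 4.02% lower).

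**Figure D1:**
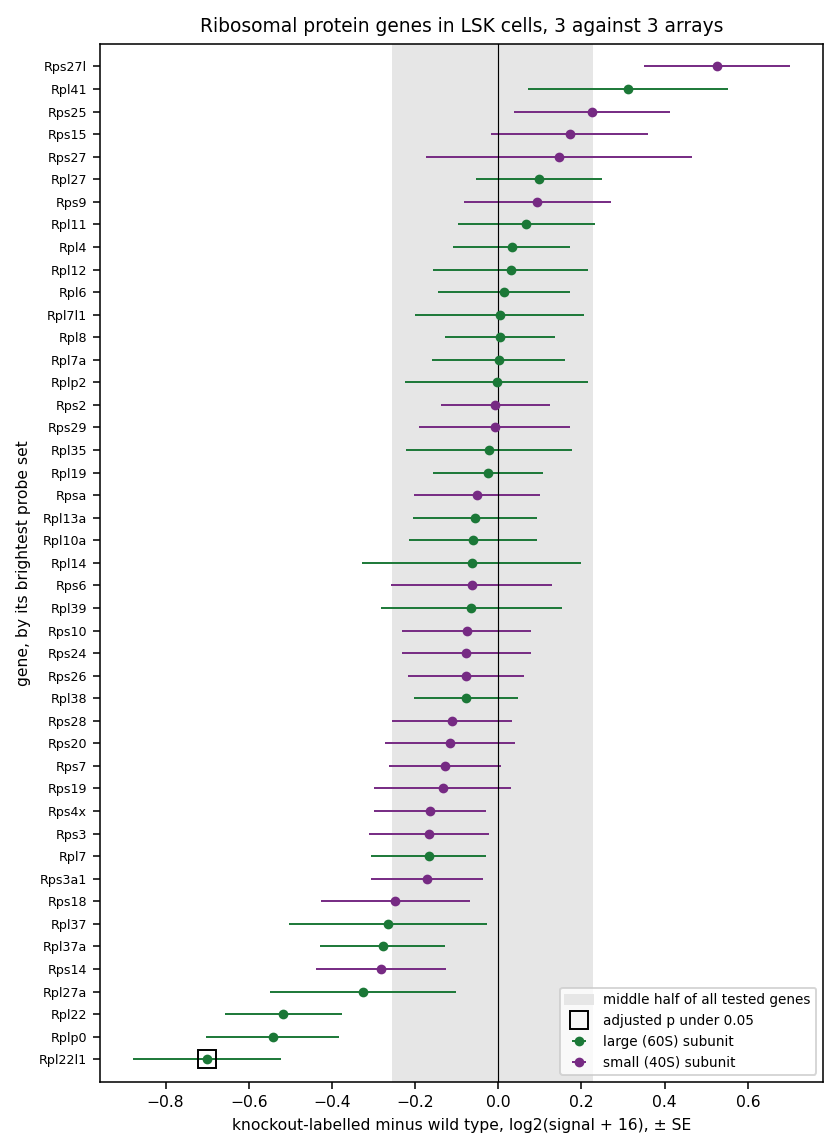
Difference between the groups for each of the 45 tested ribosomal protein genes, by the brightest probe set, with the SE of the fit (horizontal axis, log2 scale; points coloured by subunit). Most points lie inside the grey band between the quartiles of all tested genes (-0.25 to 0.23), and Rpl22l1 at -0.70, boxed, is the 1 gene past the threshold.

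Both subunits shared this pattern. The 24 tested 60S genes had a median of -0.04, with 9 above 0, 15 below and 1 called lower. The 21 tested 40S genes had a median of -0.08, with 5 above 0, 16 below and 0 called. Rpsa, the laminin receptor protein at the 40S surface, gave signals of 48292, 36630 and 34026 on knockout-labelled arrays 5, 7 and 8 and 47261, 37005 and 38303 on wild-type arrays 5, 7 and 8. The groups overlapped, and the array numbered 5 was the brightest of each group. Rpl4, a core 60S protein, stood at 0.03 ± 0.14, Rpl8 at 0.00 ± 0.13 and Rps2, at the mRNA entry channel, at -0.01 ± 0.13. The 95% confidence interval for Rps2 ran from -0.29 to 0.28.

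By their brightest probe sets, the 10 tested genes in which mutations cause Diamond-Blackfan anaemia lay between -0.13 and 0.15, with a median of -0.08 and 0 calls. Of their dimmer probe sets, 1 of Rps24 was called lower, at -1.08 ± 0.23 (limma adjusted p = 0.0220). A dimmer one of Rps10 stood at 0.85 ± 0.34 and did not pass. Rps19, the gene most often mutated in that disease, had signals of 19184, 22140 and 27473 in the knockout-labelled and 23852, 21291 and 30323 in the wild-type group, a difference of -0.13 ± 0.165 (adjusted p = 0.722). In both groups array 8 was the brightest for Rps19. Rpl11, which with Rpl5 and the 5S RNA forms the particle that binds Mdm2, stood at 0.07 ± 0.16 (adjusted p = 0.877). Rps14, whose gene lies in the region lost in the 5q- syndrome in patients, stood at -0.28 ± 0.16 (adjusted p = 0.347) and its second probe set at -0.21 ± 0.14. Its signals were 42029, 31284 and 28267 against 45741, 35932 and 40660, overlapping between the groups.

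Rpl22l1, Rplp0 and Rpl22 had the lowest differences of the 45 and Rps27l the highest, and only Rpl22l1 passed in the main fit. Rpl22l1, the paralog of Rpl22 that can take its place in the 60S subunit, had signals of 1088, 1070 and 1141 on the knockout-labelled arrays and of 1677, 1762 and 1961 on the wild-type arrays. All 3 knockout-labelled arrays lay below all 3 wild-type arrays, and the means were 1100 ± 37.1 and 1800 ± 146 (SD, n = 3 each). Rpl22l1 fell by 0.70 ± 0.18, 1.62-fold (limma adjusted p = 0.0456). The call was lost with any 1 array left out (adjusted p = 0.0625 to 0.132), with median centring (0.112), with quantile normalization (0.0523), without the brightness filter (0.0669) and with eBayes without trend (0.0817). The difference itself stayed between -0.75 and -0.64.

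Rpl22, a 60S protein that binds RNA hairpins and is needed for early lymphocyte development, was measured by a pair of probe sets that differed in sign. The brighter gave 5599, 5467 and 5961 in the knockout-labelled and 8167, 8242 and 7963 in the wild-type group, and the groups lay apart. Its difference was -0.52 ± 0.14, which did not pass (adjusted p = 0.0609) but did so in the blocked fit (0.0411), with the brightest 40% tested (0.0492), with quantile normalization (0.0399) and with cyclic loess (0.0418). The dimmer gave 5170, 6289 and 8037 against 5008, 4387 and 6049, overlapping between the groups, a difference of 0.32 ± 0.19 (adjusted p = 0.371). Averaged over both probe sets Rpl22 stood at -0.10 (adjusted p = 0.766). The brighter one carries the platform's _s_at suffix, given to probe sets that match several transcripts.

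Rplp0, the scaffold of the stalk that recruits translation factors to the 60S subunit, gave 10358, 8642 and 12071 on the knockout-labelled and 17120, 13135 and 14863 on the wild-type arrays. The groups did not overlap, and the difference of -0.54 ± 0.16 did not pass (adjusted p = 0.0819) except with the block (0.0320), quantile normalization (0.0432) and cyclic loess (0.0454). Its stalk partner Rplp2 stood at 0.00 ± 0.22, with 7333, 5065 and 4359 against 7276, 4420 and 5075. Rplp1 was not analysed here. Of the 4 tested proteins around the exit of the peptide tunnel, Rpl19, Rpl35 and Rpl39 stood at -0.03 ± 0.13, -0.02 ± 0.20 and -0.06 ± 0.22, and the fourth is Rpl22.

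Rps27l, a paralog of Rps27 that p53 induces and that binds Mdm2, had the highest difference of the 45. Its signals were 4660, 5321 and 6540 in the knockout-labelled and 3900, 3259 and 4258 in the wild-type group. Every knockout-labelled array was above every wild-type array, with a difference of 0.53 ± 0.18 that did not pass (limma adjusted p = 0.119, and 0.0648 with the block). Its dimmer probe sets stood at 0.40 ± 0.22 and 0.49 ± 0.22, with overlapping groups. Rps27 itself, with signals of 266 to 719, was at 0.15 ± 0.32. Rpl7l1, a paralog of Rpl7, stood at 0.00 ± 0.20. The paralogs Rpl3l, known from muscle, Rpl39l, known from testis, and Rps4l were at or below the brightest Bacillus control on all 6 arrays (control level 100.2 to 162) and were not tested. Their highest signals on any array were 115, 96.7 and 50.8.

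**Figure D2:**
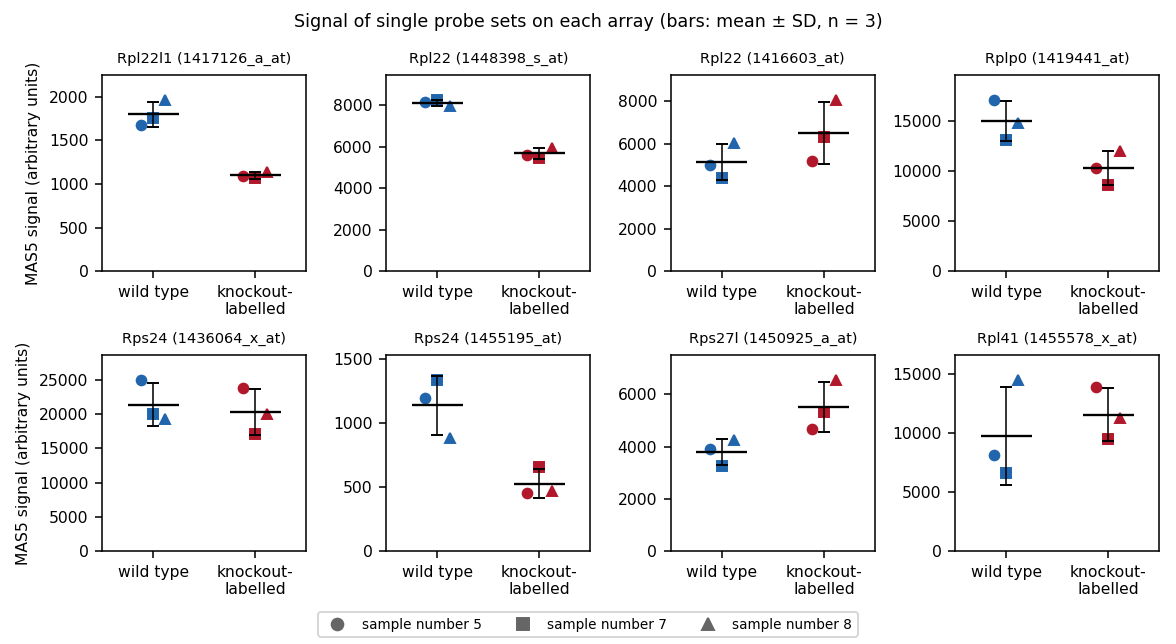
Signal on each array (vertical axis, arbitrary units from 0) for 8 probe sets of 6 genes, with the mean and SD of each group of 3 and the sample number as the symbol. The groups lie apart for Rpl22l1, the first Rpl22 probe set, Rplp0, the second Rps24 probe set and Rps27l, and overlap for the others.

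Among the other large differences by value, Rpl41, the shortest ribosomal protein, stood at 0.31 ± 0.24, with 13878, 9470 and 11289 against 8101, 6627 and 14450. Its groups overlapped, and wild-type array 8 was the brightest of all. Rpl27a, Rpl37a, Rpl37 and Rps18 stood at -0.33 ± 0.22, -0.28 ± 0.15, -0.26 ± 0.24 and -0.25 ± 0.18, with adjusted p-values of 0.331 to 0.596, and Rps25 at 0.23 ± 0.19. Rps3a1, Rpl7, Rps3 and Rps4x lay between -0.17 and -0.16, and the groups overlapped for each of these. Rps15, Rpl27, Rps9, Rpl12 and Rpl4, on the higher side, lay between 0.03 and 0.17 and also overlapped.

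Genes with several probe sets allowed a second look at each member. Of 19 genes with more than 1 tested probe set, 9 had the same sign on all of them, and in 3 (Rps24, Rps10 and Rpl22) the probe sets spread over more than 0.5 log2 units. Of the 88 tested probe sets, 0 were called higher and 2 lower, where 3.63% of all tested probe sets were called (1.44% higher and 2.19% lower). The groups did not overlap for 2 (2.27%) on the higher and 4 (4.55%) on the lower side, against 11.9% and 12.1% of all tested probe sets.

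The second call was one of the less bright probe sets of Rps24, a 40S protein whose transcripts are spliced in several ways at the 3′ end. This probe set gave 451, 661 and 472 on the knockout-labelled and 1194, 1335 and 886 on the wild-type arrays. All wild-type arrays lay above all knockout-labelled arrays, and the signal fell by 1.08 ± 0.23 (limma adjusted p = 0.0220). The brightest Rps24 probe set, with 23714, 17133 and 19977 against 24898, 19915 and 19210, stood at -0.08 ± 0.15 (adjusted p = 0.846). The other 3 tested ones lay between 0.03 and 0.20, so only 1 of 5 was lower past the threshold. Its call was lost without knockout-labelled array 5 or 8 and without wild-type array 5 or 7 (adjusted p up to 0.115), without the brightness filter (0.0643) and with eBayes without trend (0.0541). The dimmest tested probe set of Rps10 gave 275, 316 and 291 against 109, 123 and 273, at 0.85 ± 0.34 (adjusted p = 0.185), while its other 5 lay between -0.21 and 0.13.

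**Figure D3:**
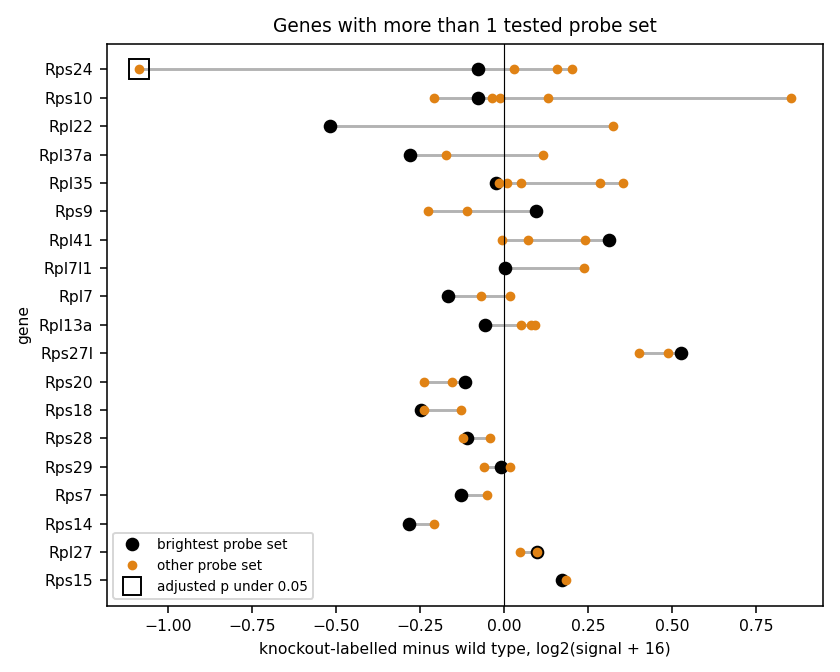
Difference between the groups (horizontal axis, log2 scale) for every tested probe set of the 19 genes that have more than 1, with the brightest in black and the others in orange. The probe sets of most genes lie close together, and those of Rps24, Rps10 and Rpl22 span more than 0.5 log2 units.

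Ribosomal protein genes often share probe sets with pseudogenes, and a further 102 probe sets carried several symbols with at least 1 ribosomal protein among them. They were left out of the members and are not named. Among their symbols were 30 of ribosomal protein genes that are not among the members. Of the 96 such probe sets that were tested, 0 passed in limma in either direction (5 at an unadjusted p under 0.05, and 1 with the block). Their median was -0.09, and they ran from -0.81 to 0.48.

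The members moved up and down between arrays of the same label. As the deviation of each gene from its own mean over the 6 arrays, the median of the 45 was 0.16 on knockout-labelled array 5, -0.15 on 7 and -0.10 on 8, and 0.23, -0.10 and 0.04 on wild-type arrays 5, 7 and 8. Both arrays numbered 5 were the highest of their group, with 34 and 40 of the 45 genes above their own mean. The 210 other bright probe sets had medians of 0.14, -0.09 and -0.09 on the knockout-labelled and 0.14, -0.08 and 0.00 on the wild-type arrays, also highest on array 5 in each group. Some of these 210 may be ribosomal protein probe sets with several symbols. The signal of the 3′ Gapdh control over its 5′ counterpart, a measure of RNA length after amplification, was 6.11, 4.30 and 4.43 on the knockout-labelled and 5.73, 4.44 and 5.64 on the wild-type arrays, and was highest on array 5 in both groups. Its part in the member levels was not tested. The median within-group SD of a member was 0.22 on the log2 scale, beside 0.25 for all tested genes and 0.16 for the other bright probe sets. Between 31 and 37 of the 100 member probe sets were among the brightest 2% of an array.

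**Figure D4:**
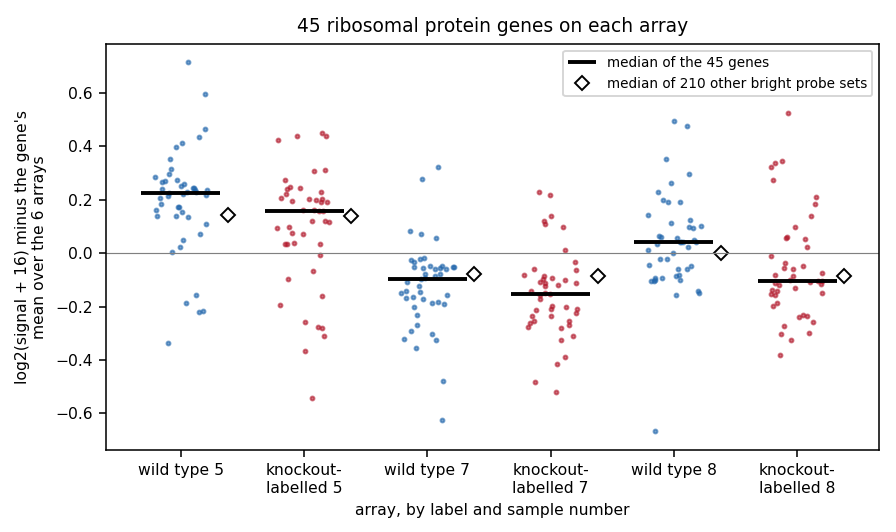
Deviation of each of the 45 ribosomal protein genes from its own mean over the 6 arrays (vertical axis, log2 scale), by array, with their median as a bar and the median of 210 other bright probe sets as a diamond. The medians are highest on both arrays numbered 5 (0.23 and 0.16) and lowest on knockout-labelled array 7 (-0.15). The 210 may include ribosomal protein probe sets with several symbols.

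Other genes of the translation pathway were read beside the members. Of 69 tested ribosome assembly genes, which process ribosomal RNA and build the subunits in the nucleolus, 5 rose and 0 fell (7.25%, beside 1.42% of all tested genes called higher). Their median was 0.27, with 57 above 0, and it stayed between 0.22 and 0.32 over all alternatives. Nhp2, a protein of the H/ACA particles that guide pseudouridine into ribosomal RNA, rose by 0.99 ± 0.18, from a mean signal of 3659 ± 760 to 7201 ± 648 (SD, n = 3 each; limma adjusted p = 0.00866). Gar1, of the same particles, rose by 0.68 ± 0.17 (adjusted p = 0.0490) and is named as the last of the 5, after its values were seen. Rrp12, a ribosome export factor, rose by 1.32 ± 0.28 (0.0229), Nolc1, a nucleolar chaperone, by 0.91 ± 0.22 (0.0360) and Bop1, of the complex that matures the 60S subunit, by 0.66 ± 0.17 (0.0452). The 5 calls fell to 1 with eBayes without trend or without the brightness filter, and to 3 with quantile normalization or cyclic loess. They fell to between 0 and 2 without any of knockout-labelled arrays 5, 7 and 8 and wild-type arrays 5 and 7, with 0 without knockout-labelled array 8. Calls higher over all probe sets also fell, from 196 to 57 with eBayes without trend and to 69 of 22626 without the brightness filter. They were 186 with quantile normalization, 182 with cyclic loess and 34 to 126 with any of the named arrays left out. Without knockout-labelled array 7, 1 assembly gene was called lower.

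The other lists had no call in limma, and their counts at an unadjusted p under 0.05 stand beside 20.6% of all tested genes. The 16 tested subunits and factors of RNA polymerase I, which transcribes ribosomal RNA and shares some subunits with other polymerases, had a median of 0.21, 12 above 0 and 3 at an unadjusted p under 0.05, with Polr2f, Polr1a and Znrd1 at 0.56 ± 0.18, 0.53 ± 0.20 and 0.45 ± 0.22 and Ttf1 at -1.43 ± 0.43 (adjusted p = 0.0870, and 0.0211 with the block). The 22 initiation factors had a median of 0.15, 16 above 0 and 3 at an unadjusted p under 0.05. Of these, Eif3b stood at 0.46 ± 0.13 (adjusted p = 0.0760, and 0.0377 with the block), and Eif6, which keeps free 60S subunits from joining, at 0.52 ± 0.16 (0.0878). The 16 elongation and other factors known from TOP mRNAs had a median of 0.03 and 3 at an unadjusted p under 0.05, which were Eef1d at 0.43 ± 0.16, Eif3l at 0.42 ± 0.16 and Eif4a2, a helicase of the initiation complex, at -0.51 ± 0.20. Eef1a1, the main elongation factor, stood at -0.26 ± 0.13. For the 6 fusion and ribosome-associated genes the median was 0.01 (0 at an unadjusted p under 0.05), and Fau, which carries a 40S protein fused to a ubiquitin-like one, stood at 0.28 ± 0.19. The 13 mTOR and S6 kinase pathway genes had a median of 0.18 (2 at an unadjusted p under 0.05), with Deptor at 0.76 ± 0.24 and Eef2k at -0.71 ± 0.25 (adjusted p = 0.104 and 0.131). The difference between the assembly genes and the ribosomal proteins was not tested.

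**Figure D5:**
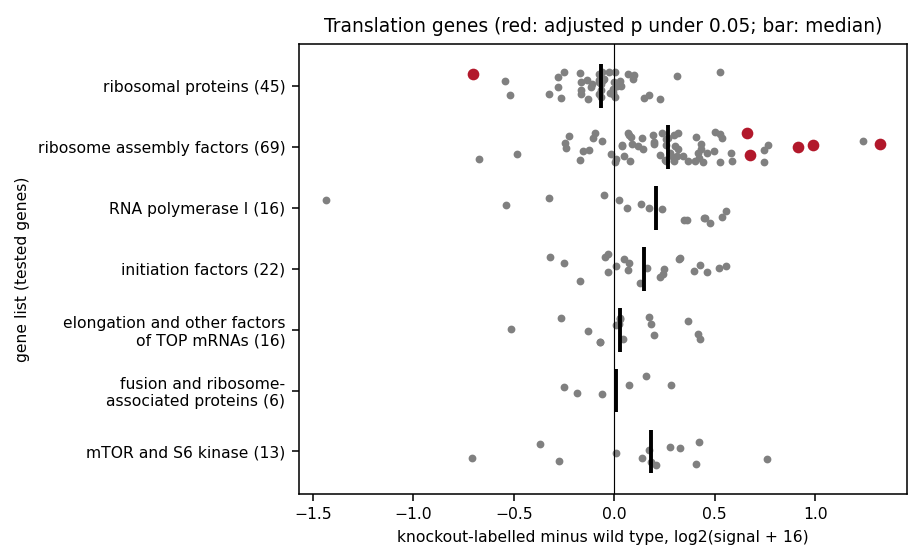
Difference between the groups (horizontal axis, log2 scale) for the tested genes of 7 translation lists, with red points past an adjusted p of 0.05 and a bar at each median. The ribosomal proteins centre on -0.06 and the ribosome assembly genes on 0.27, with 5 red points.

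Markers of some other blood cells differed between the same arrays. The sums below are over all listed genes on the array, tested or not (10 neutrophil, 12 B and plasma cell and 8 erythroid genes). Of 9 tested neutrophil genes 5 fell and 1 rose (2.48% of all tested genes were called lower and 1.42% higher), with summed signals of 7327 to 14914 on the knockout-labelled and 20835 to 42055 on the wild-type arrays. The 5 became 3 without knockout-labelled array 7 or 8, without wild-type array 5 or 7 and with eBayes without trend, and 2 without the brightness filter. Of 11 monocyte and macrophage genes 4 rose and 0 fell, with sums of 24381 to 30366 against 13040 to 22791. The 4 became 2 without knockout-labelled array 5 or 8 and without the brightness filter. Of 6 tested erythroid genes 1 fell, and 2 without wild-type array 5 (sums of 6303 to 8645 against 15799 to 22718). Of 9 tested B and plasma cell genes 0 passed in limma (2 at an unadjusted p under 0.05, with sums of 65911 to 100042 against 68335 to 85356). With the sample number as a block 1 of these 9 was called lower, and 1 without wild-type array 8. The 10 T and natural killer cell genes on the array summed to 3231 to 3809 against 3131 to 3616, and 2 of them were tested, of which Klrd1 fell by 1.41 ± 0.33 (limma adjusted p = 0.0312). That call was lost without knockout-labelled array 5, 7 or 8 or wild-type array 7, without the brightness filter and with eBayes without trend. Pax5, Cd4, Cd8b1 and Hbb-b2 were at or below the control level on all arrays. Of 9 LSK genes 3 fell and 0 rose (Hlf, Flt3 and Kit), with sums of 26701 to 30754 against 35669 to 39812, and 2 fell without any of knockout-labelled arrays 5, 7 and 8 and wild-type arrays 7 and 8. The part of these cell markers in the differences of Rpl22l1, Rps24 and the assembly genes was not tested, and in such sorted pools fewer cells of a type and less RNA per cell cannot be told apart.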

How the data were processed

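Per the labels' protocols, LSK cells were sorted by flow cytometry, and 10 ng of their RNA went through 2 amplification rounds before hybridisation as biotinylated cRNA. The deposited values are linear MAS5 signal intensity values, per the submitters' processing notes, with 1 value per probe set and array. The sources used here name no MAS5 version or settings. The 2% trimmed mean of each deposited column is 1000.33 to 1000.37, so the arrays were already scaled. For arrays, the number of samples limits the precision.

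These intensities were not normalized again and were taken as log2(signal + 16). Of 22690 probe sets, 64 AFFX controls were left out, and the 60% of the other 22626 with the highest mean log2 value (13575) were tested with limma 3.58.1 in R 4.3.3 (lmFit, eBayes with trend, two-sided, Benjamini-Hochberg over all tested), with 3 arrays against 3. Symbols come from the platform annotation, which can be old: 20380 probe sets had 1 symbol, 691 several and 1555 none. Of the 100 member probe sets, 40 have the suffix _x_at, which marks probes that can match other sequences, and 30 _a_at or _s_at. For 33 of the 45 tested genes the brightest probe set carries one of these suffixes, and for 12 it carries none. Brightness is the mean over the 6 arrays, and 27 Bacillus controls gave a background level.

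The members and the gene lists were chosen with earlier results of these data known. Named were all called members, the 10 highest and 10 lowest by difference, those with groups apart by at least 1.5-fold, groups by role, and up to 4 genes with the smallest p of each other list. Some appear only in counts. The labels' numbers were checked as a pairing by correlating deviations from the group means between the groups. Same-numbered samples gave correlations of 0.159, 0.168 and 0.238, and the others -0.134 to -0.0307. Deviations from a group mean sum to 0 within the group, so these values are not independent of each other. The numbers were taken to pair the samples, and a fit with the number as a block was an alternative to the unpaired main fit. The others were pseudocounts of 1 and 64, the brightness filter, normalization, eBayes without trend, other probe sets of a gene and leaving out each array. The scripts were tested on simulated data.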

Additional observations from a re-analysis of the deposited data

How the results depend on the processing

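The median difference of the ribosomal protein genes lay between -0.15 and 0.03 over 17 alternatives, and the count called higher was 0 in all of them. The count called lower, 1, became 0 without the brightness filter, with median centring and with eBayes without trend. It became 2 with the brightest 40% tested or quantile normalization, and 3 with cyclic loess or the sample number as a block. Leaving out each array in turn gave 0 to 0 genes called lower, and 0 to 1 probe sets called in place of 2. The probe sets called numbered 0 without the brightness filter or with eBayes without trend, 1 with median centring or with probe sets without a suffix letter only, and 4 with cyclic loess or the block. Over all probe sets the block raised the calls from 196 higher and 297 lower to 320 and 479. They were 69 and 119 of 22626 without the brightness filter, 169 and 193 with median centring and 57 and 124 with eBayes without trend. With the brightest 40% they were 185 and 265 of 9050, with quantile normalization 186 and 250, and with cyclic loess 182 and 270. Leaving out 1 array gave 34 to 266 higher and 90 to 282 lower over all probe sets. Rpl22 turned from -0.52 to 0.32 when only probe sets without a suffix letter were used, and the cause was not tested. Among the 18 probe sets recomputed singly, no other direction was reversed.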
